A study of Mus musculus with 12 samples.

Results

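The comparison set follicular B cells labelled ZFXcko against follicular B cells labelled ZFXwt after 12 h of culture with 10 µg/mL of antibody to IgM (anti-IgM), which engages the antigen receptor of B cells. It used 4 of the 12 arrays of the study, 2 for each genotype, and the arrays were chosen by their titles. The other 8 arrays held the same pair of genotypes at 0 h and at 2 h, again 2 for each combination. All cells came from the spleens of male 129SvEv mice aged 8 weeks and were sorted with a gate on B220, AA4.1, CD23 and CD21. In the following, cko and wt stand for the genotypes as labelled. The sources used here name neither the allele, nor the Cre driver, nor the number of mice. Per the labels' protocols the RNA was amplified in 2 rounds and each labelled RNA was hybridized in duplicate. The duplicates may therefore be technical, in which case a p-value reflects the spread of hybridizations and not of mice.

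Zfx is an X-linked zinc-finger transcription factor that is needed for the maintenance of lymphocytes and of several stem cell types. Crosslinking of the B cell receptor starts kinase and calcium signalling, activates NF-kB and NFAT factors and drives resting B cells towards growth and the cell cycle. The integrated stress response is a pathway in which kinases of eIF2 alpha raise the translation of the transcription factor ATF4, whose targets include amino acid synthesis, amino acid transport and tRNA charging genes. The series is about the part of Zfx in proliferation and survival after receptor stimulation, and the comparison at 12 h asks which transcripts differed between the genotypes late after the stimulus.

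The values are linear array signals in arbitrary units, deposited with a 2% trimmed mean of 250 on every array. Differences are cko minus wt in log2(signal + 16), given with the standard error of the fit, and n was 2 arrays per group throughout. The added 16 understates the differences of dim genes. A gene was called, and is said to have risen or fallen, at an adjusted p under 0.05 (limma, Benjamini-Hochberg over all genes tested). Control probe sets differed between the groups. The 5′ signal of actin was 19.1% and 19.0% of its 3′ signal on the cko arrays, against 2.11% and 2.27% on the wt arrays. The 18S ribosomal RNA 3′ signal was 1099.9 and 1033 on the cko arrays, against 10892 and 10672 on the wt arrays. Over the study, the actin ratio was 8.41 to 19.1% on 6 arrays, those of both genotypes at 2 h and of cko at 12 h. It was 1.80 to 3.33% on the other 6 arrays, those of both genotypes at 0 h and of wt at 12 h. The genotype comparison at 12 h thus crosses this division of the arrays and those at 0 h and at 2 h lie within it. At 12 h the genotype and the control-probe difference cannot be told apart, so the differences at 0 h and at 2 h are given beside those at 12 h for many of the genes described. A gene is said to follow the control-probe division when all 6 arrays of high actin ratio lay on 1 side of all 6 arrays of low ratio, in the direction of its 12 h difference. Arrays divided this way, in either direction, in 3024 of all genes tested (24.8%). The genotypes at 12 h lie on opposite sides of the division also for genes that do not follow it.

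The labelled gene was read by 3 probe sets that passed the filter on low values. The brightest Zfx probe set had signals of 1237 and 1341 in cko cells, against 1013 and 962 in wt cells (0.38 ± 0.09, adjusted p = 0.0027). Its mean signal was higher in cko cells at the earlier times too, with 2403 in cko cells, against 1012 in wt cells, at 0 h (1.23) and 1004 in cko cells, against 799.6 in wt cells, at 2 h (0.32). The other 2 probe sets that passed were not called, with mean signals of 30.2 and 55.2 in cko cells and 45.0 and 50.4 in wt cells. Where the deleted part lies relative to the probe sets is unknown here, and the values leave the genotype unchecked. Averaged over its probe sets the difference of Zfx was 0.0071 and was not called. Defining B cell genes were bright in both groups. Of 9 tested, 4 rose and 4 fell, with a median of -0.10, and Cd22 was among the falls. With averaged probe sets 5 rose and 2 fell, with a median of 0.45 against -0.11 over all genes. In 2 of the 9 genes probe sets were called in opposite directions. Cd79b, which codes for a chain of the receptor complex, had signals of 14587 and 15034 in cko cells, against 10633 and 11035 in wt cells (0.45 ± 0.05, adjusted p = 1.4e-06).

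Of 12190 genes tested, 6258 were called between the genotypes at 12 h, a share of 51.3%. They comprised 2612 genes that were higher in cko cells (21.4%) and 3646 that were lower (29.9%). The median difference over all genes was -0.17. After scaling every array to the same median, the median was 0.04 and the split turned to 3517 higher and 2544 lower genes, so the direction of small differences depends on the scaling. The arrays of the 2 genotypes did not overlap in 9246 genes (75.8%), so separation of the duplicates alone is common here. Of all genes tested, 2189 (18%) were called with a difference of at least 2-fold. At 0 h 3938 genes (32.3%) and at 2 h 3469 genes (28.5%) were called.

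Probe sets of the same gene disagreed often at 12 h. Of all 21905 probe sets tested, 48.1% were called at 12 h, 27.4% at 0 h and 21.6% at 2 h. Of 5566 genes read by several probe sets, 1126 (20.2%) had at least 1 probe set called higher and at least 1 called lower in cko cells. The same count was 312 genes (5.61%) at 0 h and 61 genes (1.10%) at 2 h. In 608 genes (10.9%) every probe set was called in the same direction at 12 h, 293 higher and 315 lower. Among the largest changes below, these agreeing genes are kept apart from the genes with opposite probe sets. The counts of gene lists read the brightest probe set of each gene and hold both kinds. Probe sets were opposite in 19 of 62 oxidative phosphorylation genes, 9 of 22 chaperones and 12 of 44 ribosome biogenesis genes. The same held for 10 of 44 mitochondrial ribosomal proteins, 8 of 44 replication genes, 5 of 18 NF-kB genes and 4 of 41 integrated stress response genes. These list totals include genes read by 1 probe set, which cannot be opposite. The like count over all genes is 1126 of 12190, and the share of 20.2% does not apply to them. Under the deposited scaling, quantile normalization and median scaling alike, 274 genes agreed and were higher and 151 agreed and were lower. Another 6624 genes were read by 1 probe set, of which 1308 rose and 1459 fell.

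**Figure D1:**
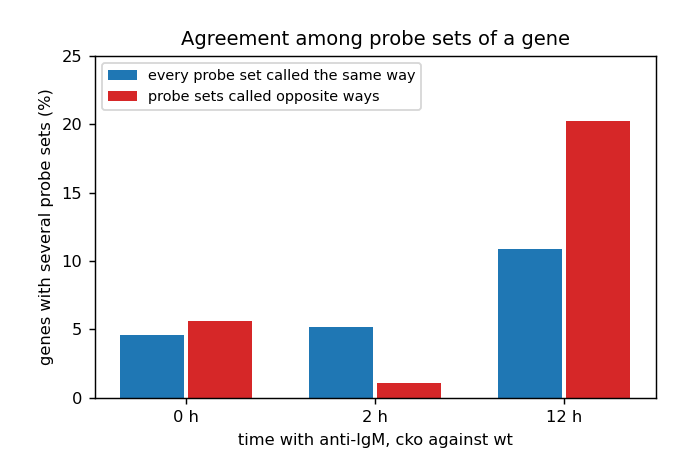
Share of the 5566 genes with several probe sets whose probe sets were all called the same way (blue) or were called in opposite directions (red) in the comparison of cko with wt at 0 h, 2 h and 12 h of anti-IgM, on a linear axis in percent. Opposite calls made up 5.61% at 0 h, 1.10% at 2 h and 20.2% at 12 h.

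**Figure D2:**
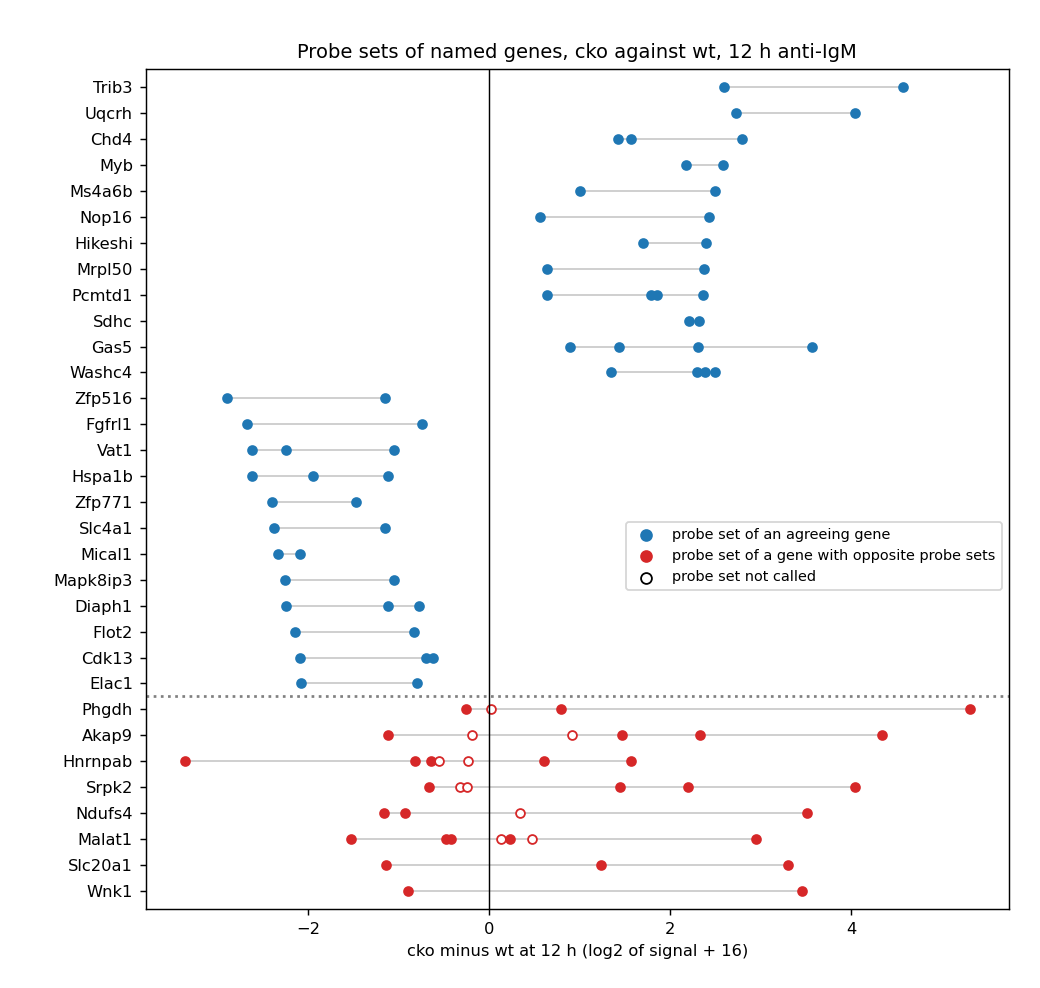
Difference of cko minus wt at 12 h in log2(signal + 16) for each probe set of the 24 agreeing genes with the largest differences (blue) and of the 8 genes with the widest gap between opposite probe sets (red). Open circles are probe sets that were not called, and the probe sets of Phgdh spanned 5.56 between the lowest and the highest called one.

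The 12 largest rises among agreeing genes were those of Trib3, Uqcrh, Chd4, Myb, Ms4a6b, Nop16, Hikeshi, Mrpl50, Pcmtd1, Sdhc, Gas5 and Washc4. Trib3, a pseudokinase gene that is a target of ATF4, had signals of 1900.5 and 1867 in cko cells, against 20.2 and 159.8 in wt cells (4.57 ± 0.53, adjusted p = 6.0e-06). The wt arrays lay far apart and both were below both cko arrays. Trib3 was also higher in cko cells at the earlier times, by 3.73 at 0 h and 3.54 at 2 h. Among the 12, Trib3 and Sdhc did not follow the division of the control probes. Sdhc, which codes for an anchor subunit of respiratory complex II, had signals of 1411 and 1643 in cko cells, against 312 and 276 in wt cells (2.32 ± 0.14, adjusted p = 1.1e-08). Its differences were 0.76 at 0 h and 0.25 at 2 h, the first of them called.

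In the other 10 of the largest rises, all 6 arrays of high actin ratio lay above all 6 arrays of low ratio. Uqcrh, a subunit of respiratory complex III, had signals of 4367 and 4556 in cko cells, against 252 and 259.8 in wt cells (4.04 ± 0.12, adjusted p = 3.7e-11). At 2 h its signals were 4379 and 4663 in cko cells and 4461 and 4562 in wt cells, a difference of 0.00. The wt arrays at 2 h were thus as bright as the cko arrays at 12 h and far brighter than the wt arrays at 12 h. Chd4, a chromatin remodelling ATPase, had signals of 2315 and 2446 in cko cells, against 367 and 294 in wt cells (2.80 ± 0.10, adjusted p = 1.7e-10). Its differences were 0.87 at 0 h and 0.03 at 2 h, called at 0 h and not at 2 h. Gas5, a non-coding RNA that hosts small nucleolar RNAs, had signals of 4838 and 5348 in cko cells, against 1012 and 1018 in wt cells (2.31 ± 0.11, adjusted p = 9.8e-10), and differences of 0.02 at 0 h and 0.38 at 2 h.

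Myb, a transcription factor of haematopoietic progenitors, and the ribosome genes Nop16 and Mrpl50 rose at every time. Myb had signals of 1577 and 1476 in cko cells, against 267 and 219 in wt cells (2.58 ± 0.12, adjusted p = 9.3e-10). Its differences were 0.72 at 0 h and 1.22 at 2 h, both called. Nop16, a nucleolar protein of ribosome assembly, differed by 2.43 ± 0.09 at 12 h, 0.31 at 0 h and 0.47 at 2 h. Mrpl50, a protein of the mitochondrial ribosome, differed by 2.38 ± 0.12 at 12 h, 0.53 at 0 h and 0.44 at 2 h. In these 3 genes the call had the same direction at all 3 times, and the difference at 12 h was the largest of the 3. All 3 followed the control-probe division.

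The 12 largest falls among agreeing genes were those of Zfp516, Fgfrl1, Vat1, Hspa1b, Zfp771, Slc4a1, Mical1, Mapk8ip3, Diaph1, Flot2, Cdk13 and Elac1. Fgfrl1, a receptor-like protein that binds fibroblast growth factors without a kinase domain, had signals of 169 and 164 in cko cells, against 1151 and 1152 in wt cells (-2.68 ± 0.12, adjusted p = 6.7e-10). It was lower in cko cells at every time, with differences of -1.09 at 0 h and -1.18 at 2 h, and did not follow the control-probe division. Zfp771, a zinc-finger protein, had signals of 1234 and 1190.2 in cko cells, against 6303 and 6636 in wt cells (-2.40 ± 0.11, adjusted p = 8.4e-10). Flot2, a scaffold protein of membrane rafts, had signals of 497 and 377 in cko cells, against 2157 and 1805 in wt cells (-2.15 ± 0.13, adjusted p = 1.1e-08). Both Zfp771 (-0.91 at 0 h and -1.60 at 2 h) and Flot2 (-1.12 at 0 h and -1.51 at 2 h) were lower at every time too, and both followed the control-probe division.

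Hspa1b, Zfp516 and Vat1 were lower in cko cells at 12 h and higher at 0 h, and none of the 3 followed the control-probe division. Hspa1b, an inducible heat shock protein of the HSP70 family, had signals of 259 and 203 in cko cells, against 1559 and 1438 in wt cells (-2.62 ± 0.10, adjusted p = 1.9e-10). At 0 h its signals were 10582 and 11042 in cko cells, against 2734 and 2892 in wt cells, a difference of 1.94. The order of the genotypes was thus turned round, with no overlap at either time. Hspa1a, its near-identical neighbour, was read by 1 probe set and differed by -3.35 ± 0.21 at 12 h, 2.50 at 0 h and 0.35 at 2 h. Probes may be shared between these 2 genes, so they do not count as separate results. Zfp516, a zinc-finger transcription factor, had signals of 84.0 and 76.1 in cko cells, against 691 and 710.1 in wt cells (-2.90 ± 0.26, adjusted p = 4.7e-07), and differences of 0.89 at 0 h and -0.81 at 2 h.

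Mical1 and Diaph1, which act on actin filaments, fell together. Mical1, an actin-oxidising monooxygenase, had signals of 707 and 702 in cko cells, against 3539 and 3712 in wt cells (-2.34 ± 0.06, adjusted p = 1.2e-11). Diaph1, a formin that nucleates actin filaments, had signals of 875 and 826 in cko cells, against 4117 and 4054 in wt cells (-2.24 ± 0.07, adjusted p = 4.6e-11). Both were higher in cko cells at 0 h, by 0.40 and 0.29, while at 2 h the differences were -0.22 and 0.09, and both followed the control-probe division. Slc4a1, the anion exchanger of red cells, was among the largest falls and is taken up with the markers of other cells below.

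Of the 293 agreeing genes that were higher in cko cells at 12 h, 83 were called higher at 0 h (28.3%) and 111 at 2 h (37.9%), where 16.3% and 12.8% of all genes tested were called higher. Of the 315 that were lower, 102 were lower at 0 h (32.4%) and 154 at 2 h (48.9%), against 16% and 15.7% of all genes. Among all genes called higher at 12 h, 23.7% were higher at 0 h and 31.6% at 2 h. Among all genes called lower at 12 h, 24.9% were lower at 0 h and 33.6% at 2 h. Calls in the opposite direction were fewer at 2 h, with 21 of the higher (7.17%) and 15 of the lower genes (4.76%), than at 0 h. At 0 h they numbered 42 (14.3%) and 69 (21.9%), where 16% of all genes were called lower and 16.3% higher. The agreeing lower genes thus exceeded the share of all genes in both directions at 0 h. Higher at all 3 times were 42 agreeing genes, and 72 were lower at all 3. Across the 608 agreeing genes, which are not independent replicates, the difference at 12 h had a Pearson correlation of 0.638 with that at 2 h and of 0.329 with that at 0 h, from arrays that the comparisons do not share. Over all 12190 genes the values were 0.367 and 0.134. The difference itself, 12 h against the mean of 0 h and 2 h, was called for 5236 of all genes tested (43%), and in the direction of 12 h for 216 of the 293 higher and 223 of the 315 lower agreeing genes. For all genes called at 12 h it was so in 1924 of 2612 higher and 2478 of 3646 lower ones. The 12 h difference by which these genes were chosen is part of this test, so the counts are not separate evidence.

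**Figure D3:**
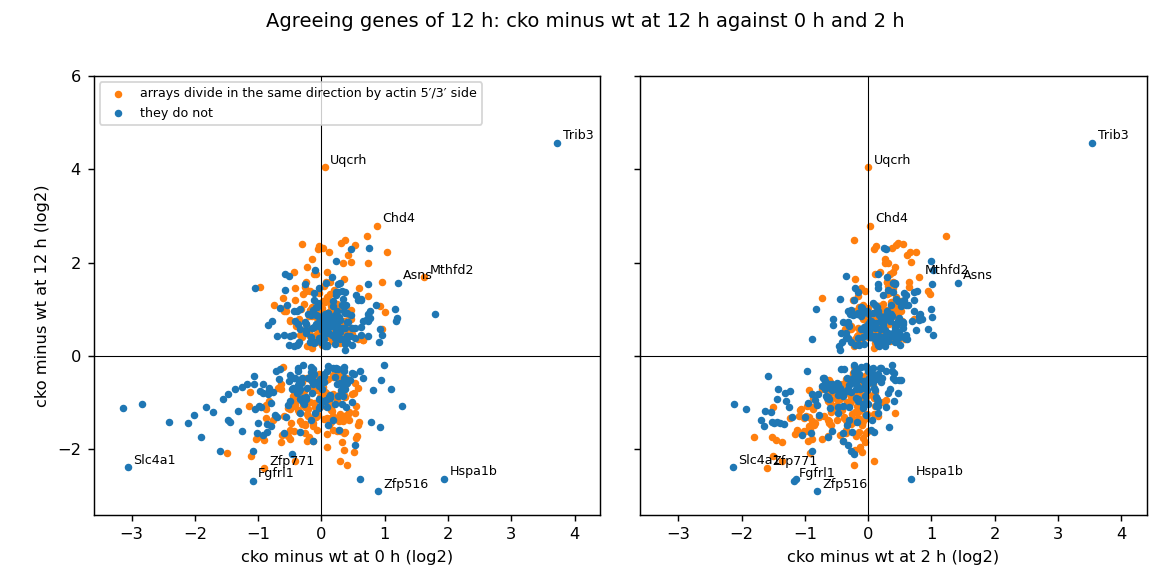
Differences of cko minus wt in log2(signal + 16) for the 608 agreeing genes of 12 h, at 12 h (vertical) against 0 h (left) and 2 h (right). Orange points are the 295 genes whose 6 arrays of high and 6 arrays of low actin ratio did not overlap in the direction of the 12 h difference, and Trib3 stands high at all 3 times while Hspa1b turns its sign.

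All 6 arrays of high actin ratio lay on the side of the cko arrays for 295 of the 608 agreeing genes (48.5%). For all 6258 called genes the share was 41.8%. Of the genes that agreed under every scaling, 147 higher and 62 lower ones did not follow this division. Of these, 24 were higher and 18 were lower at all 3 times. Asns, Ddit3, Leprotl1 and Rfc3 were among the 24, and Slc4a1, Arhgap21, Pink1, Pfn2, Cbx6, Usf2 and Prnp were among the 18, names that were chosen after their values were seen. Arhgap21, a GTPase-activating protein, had signals of 105 and 93.7 in cko cells, against 485 and 431 in wt cells (-2.04 ± 0.13, adjusted p = 2.1e-08), and differences of -1.61 at 0 h and -0.89 at 2 h. Pink1, a mitochondrial kinase that marks damaged mitochondria, had signals of 281 and 299 in cko cells, against 741 and 886 in wt cells (-1.43 ± 0.11, adjusted p = 1.0e-07), and differences of -1.0 at 0 h and -1.40 at 2 h. Leprotl1, a small membrane protein, had signals of 2338 and 2666 in cko cells, against 1269 and 1376 in wt cells (0.91 ± 0.13, adjusted p = 4.1e-05), and its differences at the earlier times were 1.80 at 0 h and 0.82 at 2 h.

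The letters AGGCCT, a core of the motif reported for Zfx, were searched in promoters to describe the genes that were lower in cko cells at every time. This motif reads the same on both strands. RefSeq promoters (GRCm38.p6, 250 bases before to 50 after a start site) were at hand for 9855 of the genes tested, and 12.7% of them held it. The share was 15.5% of 258 agreeing genes that were lower at 12 h and 10.6% of 245 that were higher. Among agreeing genes called at all 3 times it was 8 of 63 lower genes (12.7%) and 0 of 35 higher genes. The share in the lower genes thus equalled that of all genes. The 4 with the largest falls at 12 h are printed with the motif in capitals. They are Zfp771 at chr7:127244276-127244575 (+ strand), Ankrd13d at chr19:4283088-4283387 (- strand), Zyx at chr6:42349578-42349877 (+ strand) and Pfn2 at chr3:57847708-57848007 (- strand). Each is read 5′ to 3′ on the strand of the gene.
Zfp771: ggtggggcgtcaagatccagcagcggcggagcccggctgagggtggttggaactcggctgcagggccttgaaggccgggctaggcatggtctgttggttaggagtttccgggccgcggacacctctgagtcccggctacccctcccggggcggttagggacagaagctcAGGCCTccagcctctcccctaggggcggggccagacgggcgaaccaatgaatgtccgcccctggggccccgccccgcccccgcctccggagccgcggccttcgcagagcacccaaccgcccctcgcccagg
Ankrd13d: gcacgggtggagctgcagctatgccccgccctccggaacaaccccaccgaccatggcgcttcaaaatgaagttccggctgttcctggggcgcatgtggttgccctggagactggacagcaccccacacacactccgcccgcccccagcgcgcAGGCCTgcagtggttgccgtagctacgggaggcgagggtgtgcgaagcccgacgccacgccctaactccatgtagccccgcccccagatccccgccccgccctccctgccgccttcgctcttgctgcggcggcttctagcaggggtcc
Zyx: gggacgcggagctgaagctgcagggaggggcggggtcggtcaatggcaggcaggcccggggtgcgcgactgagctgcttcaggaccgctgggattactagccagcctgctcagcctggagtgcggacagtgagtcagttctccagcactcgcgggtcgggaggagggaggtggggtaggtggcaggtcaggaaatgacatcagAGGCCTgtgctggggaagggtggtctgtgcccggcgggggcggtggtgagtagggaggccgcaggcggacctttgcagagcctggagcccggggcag
Pfn2: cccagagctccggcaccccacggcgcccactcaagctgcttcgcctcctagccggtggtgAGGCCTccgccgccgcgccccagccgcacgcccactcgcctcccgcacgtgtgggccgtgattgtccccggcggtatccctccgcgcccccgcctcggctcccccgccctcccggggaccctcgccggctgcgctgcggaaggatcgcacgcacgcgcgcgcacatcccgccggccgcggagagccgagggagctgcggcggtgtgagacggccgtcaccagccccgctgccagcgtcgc
A match is a description of these letters and not a binding site. Zyx, an adhesion protein, had signals of 235 and 216 in cko cells, against 758 and 652 in wt cells (-1.58 ± 0.13, adjusted p = 2.1e-07), and differences of -0.50 at 0 h and -0.91 at 2 h. Pfn2, a profilin that binds actin monomers, had signals of 161 and 157 in cko cells, against 484 and 418 in wt cells (-1.41 ± 0.16, adjusted p = 4.8e-06), and differences of -1.44 at 0 h and -1.52 at 2 h. The difference of Pfn2 was nearly the same at all 3 times and did not follow the control-probe division, whereas those of Zfp771, Ankrd13d and Zyx did.

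Among genes read by 1 probe set, the largest rises were those of Rpl22l1, Nop58, Il6, Cebpzos and Chac1. Chac1, an enzyme that degrades glutathione and a target of the stress factors ATF4 and CHOP, had signals of 820.4 and 856 in cko cells, against 89.1 and 127 in wt cells (2.80 ± 0.25, adjusted p = 4.3e-07). It was higher by 2.42 at 0 h and 2.53 at 2 h. Il6, a cytokine gene, had signals of 193 and 188 in cko cells, against 6.40 and 1.35 in wt cells (3.39 ± 0.33, adjusted p = 9.2e-07). Both wt arrays were near the bottom of the scale, and it was higher by 1.06 at 0 h and not called at 2 h. Rpl22l1 and Nop58, a ribosomal protein paralogue and a core protein of small nucleolar ribonucleoproteins, rose by 3.76 ± 0.12 and 3.52 ± 0.13 and followed the control-probe division, with no call at 0 h or 2 h. The largest falls were those of Mid1, Hspa1a, Dis3l, Macroh2a3 and Cep170b. Mid1, an X-linked ubiquitin ligase of microtubules, had signals of 102 and 79.3 in cko cells, against 1433 and 1173 in wt cells (-3.63 ± 0.14, adjusted p = 2.2e-10), and was also lower at the earlier times (-1.23 at 0 h and -0.66 at 2 h). Cep170b, a microtubule-associated protein, had signals of 90.9 and 82.4 in cko cells, against 759 and 716 in wt cells (-2.88 ± 0.16, adjusted p = 6.2e-09), and was also lower at the earlier times (-2.41 at 0 h and -2.23 at 2 h). Dis3l, an exoribonuclease of the cytoplasmic exosome, differed by -3.10 ± 0.32 at 12 h and by -2.30 at 0 h and -1.54 at 2 h. Macroh2a3 differed by -2.99 ± 0.35 at 12 h and was called at neither of the earlier times.

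**Figure D4:**
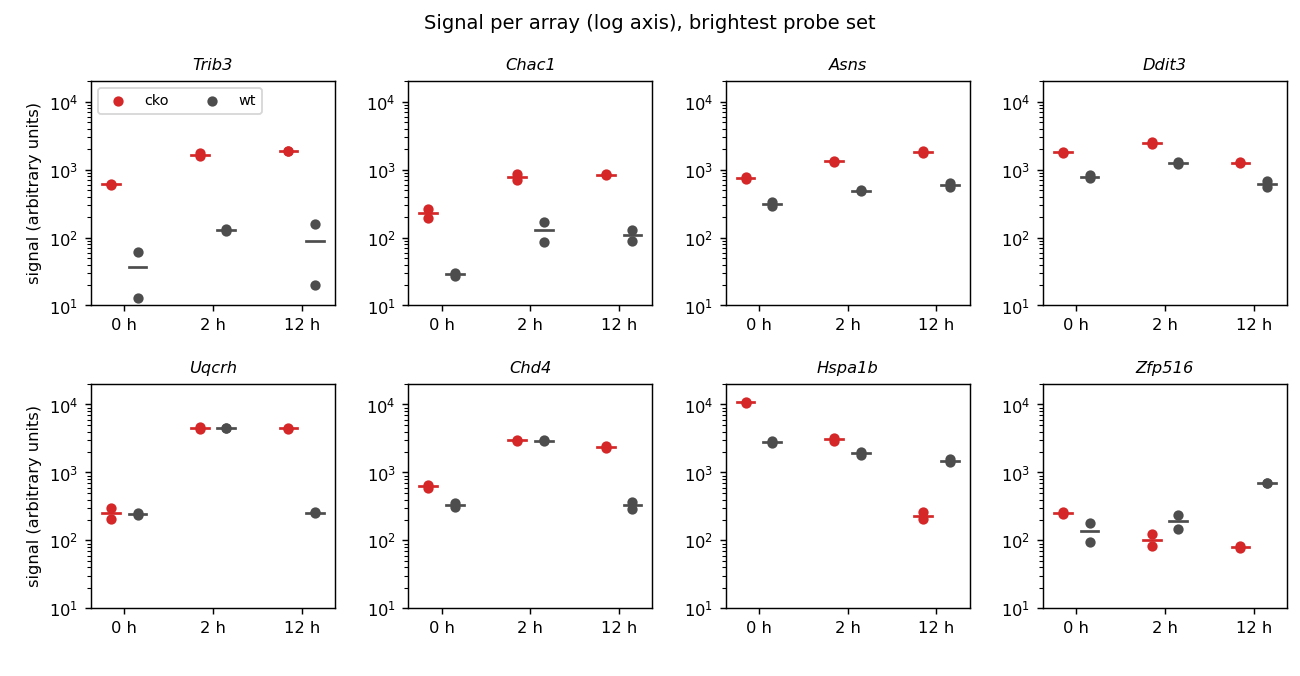
Signal of the brightest probe set on each of the 12 arrays for 8 genes, on a log axis in arbitrary units, with cko (red) left of wt (grey) at 0 h, 2 h and 12 h. Points are arrays and bars are means of 2 arrays. Trib3, Chac1, Asns and Ddit3 were higher in cko cells at each time, Uqcrh and Chd4 were alike in both genotypes at 2 h, and Hspa1b changed its order.

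Genes of the integrated stress response rose more often than they fell. Of its 41 genes tested, 25 rose and 5 fell, with a median difference of 0.52 against -0.17 over all genes. The shares of all genes that rose and fell were 21.4% and 29.9%. All probe sets agreed in 10 of the rises and in 0 of the falls. At 0 h 19 members were higher and 1 was lower, at 2 h 22 were higher and 1 was lower, and 13 rose at all 3 times. With quantile normalization 24 rose and 4 fell, with median scaling 31 rose and 1 fell, and when the probe sets of a gene were averaged 26 rose and 1 fell. Of the 25 rises, 8 followed the control-probe division.

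Its regulators included Ddit3, the gene of the transcription factor CHOP. Ddit3 had signals of 1232 and 1279.7 in cko cells, against 555 and 689 in wt cells (1.0 ± 0.09, adjusted p = 7.1e-07). At 0 h its signals were 1812 and 1763 in cko cells, against 818 and 757 in wt cells, and at 2 h 2417 and 2575, against 1277 and 1202 in wt cells. The difference of Ddit3 was thus about 1 at every time (1.17 at 0 h and 1.0 at 2 h), and neither genotype's arrays overlapped with the other's. Atf4, the central factor of the pathway, had 1 probe set that rose by 2.09 ± 0.06 and 1 that fell by 0.63, so its direction at 12 h is not settled. The 5 members that fell included the eIF2 alpha kinase genes Eif2ak1 (-1.11 ± 0.13) and Eif2ak4 (-0.55 ± 0.20). The others, Shmt2, Phgdh and Nars, had probe sets called in opposite directions, and with median scaling only the fall of Eif2ak1 was left. Without wt replicate 2 the fall of Eif2ak4 was lost (-0.33), as it was without cko replicate 1 (-0.53) or cko replicate 2 (-0.56). That of Nars (-0.21) was lost without wt replicate 1 (-0.17) or cko replicate 1 (-0.16), and that of Phgdh (-0.26) without cko replicate 1 (-0.19).

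Among the targets, Asns, asparagine synthetase, had signals of 1855 and 1729 in cko cells, against 559.7 and 630.2 in wt cells (1.57 ± 0.10, adjusted p = 1.1e-08). It was higher by 1.21 at 0 h and 1.41 at 2 h, and its groups did not overlap at any time. Mthfd2, a mitochondrial folate enzyme, had signals of 4831 and 4739.9 in cko cells, against 1329.5 and 1639 in wt cells (1.69 ± 0.09, adjusted p = 3.0e-09), and was higher by 1.62 at 0 h and 0.81 at 2 h, both called. Eprs, the tRNA synthetase for glutamate and proline, had signals of 3952 and 3717 in cko cells, against 1677 and 1732 in wt cells (1.16 ± 0.07, adjusted p = 5.7e-09), with differences of 0.15 at 0 h and 0.38 at 2 h, only the second of which was called. Mthfd2 and Eprs followed the control-probe division, and Asns did not. Herpud1, a protein of degradation from the endoplasmic reticulum, had signals of 551 and 652 in cko cells, against 254 and 195 in wt cells (1.36 ± 0.13, adjusted p = 9.2e-07), and differences of 0.26 at 0 h and 0.73 at 2 h, only the second of which was called. Among 19 enzymes that charge tRNAs in the cytosol, the rises numbered 11 and the falls 6, with a median of 0.29. Of all genes tested, 21.4% rose and 29.9% fell. In 7 of the 11 rises the arrays followed the control-probe division, and 5 of the 19 genes had probe sets called in opposite directions. The rises of Tars (2.02 ± 0.07) and Rars (1.90 ± 0.13) rest on 1 probe set each and followed the control-probe division.

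**Figure D5:**
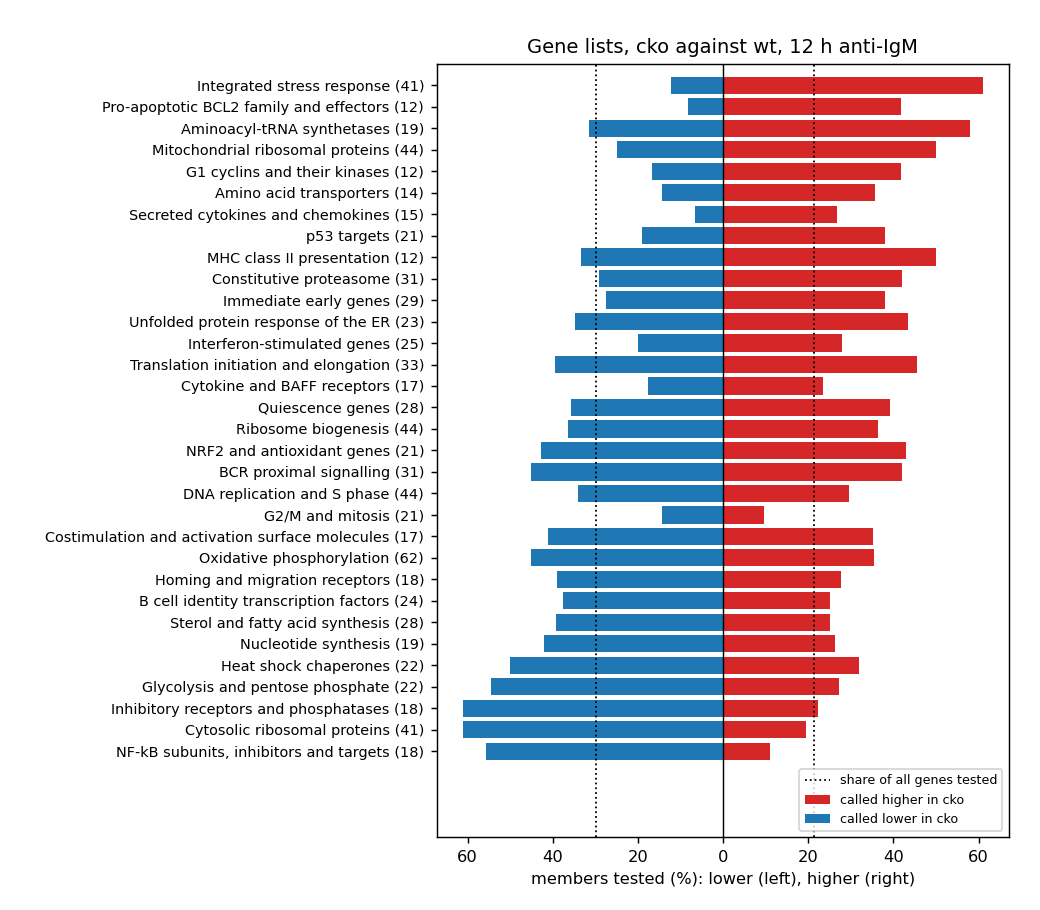
Share of the tested members of each pathway or function list (number in brackets, lists of 10 or more, cell type markers left out) that were called lower (blue, to the left) or higher (red, to the right) in cko cells than in wt cells at 12 h, in percent. Dotted lines give the shares of all genes tested, 29.9% lower and 21.4% higher, and lists are ordered by the share higher minus the share lower under the deposited scaling.

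NF-kB genes fell more often than they rose. Of 18 subunits, inhibitors and targets of this transcription factor, 2 rose and 10 fell, with a median of -0.36. Over all genes 21.4% rose and 29.9% fell, with a median of -0.17. With median scaling 5 rose and 9 fell. With the mean of probe sets 4 rose and 7 fell, and the median of -0.12 was close to that of all genes (-0.11). Nfkbie, an inhibitor that keeps NF-kB in the cytoplasm and is itself induced by it, had signals of 3559.5 and 3744 in cko cells, against 9522 and 9921 in wt cells (-1.41 ± 0.05, adjusted p = 2.2e-10). Nfkb2, the precursor of the p52 subunit, had signals of 364 and 382 in cko cells, against 1157 and 1263 in wt cells (-1.65 ± 0.11, adjusted p = 2.2e-08). All probe sets agreed in Nfkbie and in Nfkb2, and the Nfkbie arrays did not follow the control-probe division while those of Nfkb2 did. At 0 h the difference had the other sign in Nfkbie (0.78) and Nfkb2 (0.35), at 2 h it was -0.18 and -0.04, and at 0 h 9 members were higher and 2 lower. Irf4, a transcription factor of activated B cells, and Icam1, an adhesion molecule, fell (-0.77 and -0.73), on 1 called probe set each.

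Receptors and enzymes that dampen receptor signalling fell more often than they rose. Of 18 tested, 4 rose and 11 fell, with a median of -0.39 against -0.17 over all genes, while with median scaling 5 rose and 8 fell. With the mean of probe sets 5 rose and 8 fell too, and the median of -0.13 was close to that of all genes (-0.11). Of the 11 falls, 9 followed the control-probe division. Cd22, a lectin that recruits the phosphatase SHP-1, had signals of 2787 and 2764 in cko cells, against 8236 and 8381 in wt cells (-1.58 ± 0.05, adjusted p = 5.1e-11). Its differences at the earlier times were 0.18 at 0 h and -0.34 at 2 h. Fcgr2b, the inhibitory Fc receptor, was called higher by all of its 4 probe sets, with signals of 2968 and 2982 in cko cells, against 1998 and 1950.0 in wt cells (0.59 ± 0.07, adjusted p = 1.2e-05). Fcgr2b did not follow the division and was not called at 0 h or 2 h. Cblb, a ubiquitin ligase, and Dok3, an adaptor, fell (-1.81 and -1.34). The list thus held members with agreeing probe sets in both directions.

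Of 31 proximal signalling genes tested, 13 rose and 14 fell, with a median of -0.10, while with median scaling 14 rose and 10 fell. Fyn, a Src family kinase, had signals of 734 and 808 in cko cells, against 500.5 and 517 in wt cells (0.58 ± 0.15, adjusted p = 0.0046), and was not called at 0 h (-0.19) or 2 h (0.24). Bcl10, an adaptor between the receptor and NF-kB, rose by 0.86 ± 0.05, with 3 of its 4 probe sets called. Fyn and Bcl10 followed the control-probe division. Itpr2, a calcium channel of the endoplasmic reticulum, differed by -1.54 ± 0.10 with 3 of its 6 probe sets called lower, and was lower at 0 h and 2 h as well (-0.38 and -0.40).

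Of the survival genes of the BCL2 family, 4 were tested and 3 fell, of which 1 fall was left with median scaling. Bcl2l1, which codes for BCL-XL, had signals of 628 and 874 in cko cells, against 2177 and 1777 in wt cells (-1.39 ± 0.17, adjusted p = 1.1e-05). It was read by 1 probe set, did not follow the control-probe division, and was lower at 0 h (-0.60) and not called at 2 h (-0.46). Mcl1 differed by -0.38 ± 0.05 on its brightest probe set, but 1 of its 6 probe sets was called higher (0.88), and the call was lost with quantile normalization (-0.09) and with median scaling (-0.16). Bcl2 had signals of 1952 and 1992 in cko cells, against 2480.5 and 2587 in wt cells (-0.36 ± 0.06, adjusted p = 1.5e-04), and differences of 0.14 at 0 h and 0.21 at 2 h. Called lower were 3 of its 5 probe sets, and the brightest followed the control-probe division and was not called with median scaling (-0.14). Of 12 pro-apoptotic genes and caspases, 5 rose and 1 fell, with a median of 0.00, but with averaged probe sets 3 rose and 3 fell, with a median of -0.17. Bcl2l11, which codes for BIM, had brightest-probe-set signals of 10337 and 9480.2 in cko cells and 8998 and 9831 in wt cells (0.07 ± 0.11) and was not called, though it was with quantile normalization (0.35) and median scaling (0.29). Casp8, an initiator caspase, rose by 0.68 ± 0.10 and Casp6, an effector caspase, by 0.70 ± 0.10. Casp6 was called by 1 of 2 probe sets and was not called when these were averaged (0.26, adjusted p = 0.33).

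Cell cycle genes gave mixed values. Ccnd2, the D-type cyclin of B cells, had signals of 3531 and 3699 in cko cells and 3985 and 3938 in wt cells (-0.13 ± 0.06) on its brightest probe set, which was not called. Of its 7 probe sets, 3 were called higher and 2 lower, from -0.91 to 1.57. Myc, the growth-promoting transcription factor, had signals of 952 and 1062 in cko cells, against 393 and 426 in wt cells (1.27 ± 0.12, adjusted p = 8.6e-07). It was read by 1 probe set that followed the control-probe division, with differences of 0.75 at 0 h and 0.31 at 2 h. Ccne1, the E-type cyclin of the entry into S phase, had brightest-probe-set signals of 367 and 404 in cko cells, against 864 and 878 in wt cells (-1.14 ± 0.14, adjusted p = 1.1e-05), and was lower at all 3 times (-0.70 at 0 h and -1.65 at 2 h). Cdk2, its partner kinase, rose by 1.72 ± 0.17 and followed the division. Of 12 G1 cyclins and kinases 5 rose and 2 fell, where 21.4% of all genes rose and 29.9% fell. All probe sets agreed in 1 of these rises and in 0 of the falls. Cdk4 rose on all 3 of its probe sets (0.23 ± 0.07), with differences of -0.51 at 0 h and -0.14 at 2 h. Cdkn1a, which codes for p21, had signals of 2277 and 1901 in cko cells and 2103 and 2255 in wt cells (-0.07 ± 0.14) and was not called, while averaging its probe sets gave a call of 1.25. Cdkn1b, which codes for p27, differed by -0.73 ± 0.16 and fell. Of 44 replication genes, 13 rose and 15 fell, with a median of 0.13, but 19 rose and 11 fell with median scaling and 18 rose and 7 fell with averaged probe sets. In this list Dnmt1 fell on all 3 probe sets (-0.92 ± 0.11), Rfc3 rose on both of its probe sets (0.75 ± 0.17) and at all times, and Pcna rose on 1 probe set (1.16 ± 0.06). Dnmt1 and Pcna followed the control-probe division. Of 21 mitotic genes, 2 rose and 3 fell, against 4 and 2 with median scaling.

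Surface molecules of activated B cells did not move together. Of 17 costimulation and activation molecules, 6 rose and 7 fell, with a median of -0.21, while with averaged probe sets 6 rose and 4 fell. Cd69, an early activation antigen, had signals of 775 and 852 in cko cells, against 469.6 and 421 in wt cells (0.85 ± 0.09, adjusted p = 1.4e-06), and was higher at every time (0.36 at 0 h and 0.53 at 2 h). Cd83 fell on 1 probe set (-0.87 ± 0.06), and Cd86, a ligand of CD28, had 1 probe set called higher and 1 called lower. Cd44, an adhesion receptor, rose on all 3 probe sets (1.09 ± 0.17), and Il4ra, the interleukin 4 receptor chain, fell on both (-1.23 ± 0.16). Cd44 followed the control-probe division and Il4ra did not. Of 12 genes of antigen presentation on MHC class II, 6 rose and 4 fell, and H2-DMb2 (0.30 ± 0.06) and H2-Ab1 (0.22 ± 0.05) rose on all 3 of their probe sets by small amounts.

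Metabolic genes were divided by pathway. Of 22 genes of glycolysis and the pentose phosphate path, 6 rose and 12 fell, with a median of -0.48, while with median scaling 8 rose and 10 fell. Over all genes 21.4% rose and 29.9% fell, with a median of -0.17. Ldha, lactate dehydrogenase, had signals of 4886 and 4908 in cko cells, against 11847 and 12463 in wt cells (-1.31 ± 0.06, adjusted p = 1.8e-09), and was not called at 0 h (-0.09) or 2 h (0.05). Pgk1, which makes ATP in glycolysis, fell on all 3 probe sets (-0.58 ± 0.08), and Slc2a3, a glucose transporter, on both (-0.93 ± 0.08). Taldo1, transaldolase, rose by 1.17 ± 0.07. Ldha, Pgk1 and Taldo1 did not follow the control-probe division and Slc2a3 did. Of 44 mitochondrial ribosomal proteins, 22 rose and 11 fell, with a median of 0.27, and the excess of rises held in quantile (22 against 10) and median scaling (28 against 8). In 9 of the 22 rises the arrays followed the control-probe division. Mrpl27 rose on both of its probe sets (1.80 ± 0.12) and followed the division, and Mrps10 rose on both (0.38 ± 0.07) and at all times.

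Cytosolic ribosomal proteins have no settled direction here. Of 41 tested, 8 rose and 25 fell under the deposited scaling, but 15 rose and 6 fell with quantile normalization, where their median was 0.11 in place of -0.29. Of the 62 oxidative phosphorylation genes, 22 rose and 28 fell, while with the mean of probe sets 32 rose and 18 fell. Ndufs7 (-1.10 ± 0.07) and Cox6b1 (-0.58 ± 0.05), subunits of complexes I and IV, fell on both of their probe sets, against the rises of Uqcrh and Sdhc. Of 44 ribosome biogenesis genes 16 rose and 16 fell, and all 16 rises followed the control-probe division. In this list 20 rose and 12 fell with median scaling and 17 rose and 8 fell with averaged probe sets. Of 22 chaperones 7 rose and 11 fell, but 10 rose and 9 fell with median scaling and 8 rose and 7 fell with averaged probe sets. Hspe1, the mitochondrial co-chaperone, rose on both probe sets (1.59 ± 0.07), unlike Hspa1b. Of 23 genes of the unfolded protein response of the endoplasmic reticulum 10 rose and 8 fell. In that list Hsp90b1 (1.28 ± 0.09) and Derl2 (1.17 ± 0.06) rose and Calr (-0.63 ± 0.05) and Syvn1 (-0.94 ± 0.07) fell, each on all of its probe sets, and of these 4 only Calr did not follow the division.

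Most of the called markers of neutrophils, red cells and platelets were lower in cko cells. Of 10 neutrophil genes tested, 1 rose and 6 fell, and the summed signal was 3615 and 3418 in cko cells, against 8497 and 7588 in wt cells. With median scaling 1 rose and 4 fell. Under the deposited scaling 21.4% of all genes rose and 29.9% fell. S100a8, a granulocyte calcium-binding protein, had signals of 953 and 926 in cko cells, against 5146 and 4137 in wt cells (-2.28 ± 0.09, adjusted p = 2.2e-10). It was lower at 0 h and 2 h as well (-1.38 and -2.77), and 6 of the neutrophil genes fell at all 3 times. Camp, a granule peptide, was the exception, with signals of 929 and 885 in cko cells, against 293 and 247 in wt cells (1.69 ± 0.10, adjusted p = 1.0e-08), and was lower at 0 h (-1.32) and 2 h (-2.41). Of 3 red cell genes 2 fell, at all 3 times. Slc4a1 had signals of 14.8 and 18.9 in cko cells, against 172 and 139 in wt cells (-2.38 ± 0.20, adjusted p = 2.2e-07), and Alas2, the haem synthesis enzyme of red cells, differed by -2.08 ± 0.17. Of 3 platelet genes 2 fell and none rose, with summed signals of 117 and 161 in cko cells, against 329.6 and 294 in wt cells. None of the 3 was called at 0 h or 2 h, and 1 of the 2 falls followed the control-probe division. Of 10 myeloid genes 1 rose and 5 fell, and of 11 genes of T and NK cells 4 rose and 2 fell. With median scaling 2 rose and 3 fell among the myeloid genes, and 4 rose and 0 fell among those of T and NK cells. Of 9 B cell genes 4 rose and 4 fell on the brightest probe sets, against 5 and 2 with averaged probe sets. Their summed signals were 60712 and 63978 in cko cells and 66161 and 66600 in wt cells. In such bulk samples fewer cells of a type and less RNA per cell cannot be told apart, and the part of these cells in the results above was not tested.

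In the 1126 genes with opposite probe sets, the value depended on the probe set that was read. The widest gaps were in Phgdh, Akap9, Hnrnpab, Srpk2, Ndufs4, Malat1, Slc20a1 and Wnk1. For Phgdh, the first enzyme of serine synthesis, 1 probe set had signals of 3598 and 3551 in cko cells, against 72.7 and 76.8 in wt cells, a difference of 5.31. Its brightest probe set had signals of 4963 and 5467 in cko cells, against 6044 and 6418 in wt cells, a difference of -0.26. For Wnk1, a kinase of ion transport, 1 probe set differed by 3.45 and the other by -0.90. For Hnrnpab, an RNA-binding protein, the 7 probe sets ran from -3.37 to 1.56. Probe sets assigned to 1 gene symbol were thus far higher and lower on the same 4 arrays. The cause was not tested, and the positions of the probe sets in the transcripts were not analysed here.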

How the data were processed

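Signal intensities of Affymetrix Mouse Genome 430 2.0 arrays were deposited by the authors as linear values, made with GCOS 1.4 per the submitters' processing notes, and the values show a 2% trimmed mean of 250 on each array. How probes were summarised and which were called present is not stated in the labels. The arrays hold 45101 probe sets, comprising 64 controls, 9160 without a symbol, 932 with several symbols and 34945 with 1, of which 99.4% matched RefSeq (GRCm38.p6) by gene ID. Values were set to log2(signal + 16), and 21905 probe sets above the 40th percentile of the mean over all arrays (5.14) were kept. For 12190 genes the brightest probe set was fitted with limma 3.58.1 (R 4.3.3), with 1 mean per group over all 12 arrays, a trended eBayes prior and 6 residual degrees of freedom. P-values were adjusted by Benjamini-Hochberg over all genes, or over all probe sets for agreement within a gene, and the procedure was tested on simulated data. The number of arrays, 2 per group, limits the precision.

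Named genes were the 12 largest called changes each way among agreeing genes and the 5 largest each way among genes with 1 probe set. To these came the 8 widest opposite gaps, up to 5 members of each described list by p-value with agreeing genes first, and a set of survival, cycle and stress genes. Markers of cell types, the stress response members that fell, the promoter genes and the genes that moved alike at all times outside the control-probe division were named beyond this rule, most of them after their values were seen. The members and lists were chosen with earlier results of these data known. Alternatives were the scaling, pseudocounts of 1 and 64, filters, the prior, array weights, a replicate block, the 4 arrays alone, averaged probe sets, a 2-fold minimum and leaving out each array. The numbers of the duplicates were not treated as pairs. Counts of lists under other scalings, the agreement under all scalings and the control-probe division were added after seeing the data.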

Additional observations from a re-analysis of the deposited data

Results flagged for a closer look

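The following genes passed the test of the difference at 12 h minus the mean of 0 h and 2 h (limma, Benjamini-Hochberg over all genes). Their differences were called with opposite signs at different times. Of all genes tested, 43% passed this test. Only the largest named changes and the set of survival, cycle and stress genes were searched, so others such as Nfkbie are not listed. The value was -4.78 for Hspa1a (adjusted p = 1.1e-08) and -3.93 for Hspa1b (adjusted p = 1.2e-10), near-identical genes that may share probes. It was -2.94 for Zfp516, -2.36 for Vat1 and -1.05 for Cdkn1b, none of which followed the control-probe division. It was -2.43 for Diaph1, -2.43 for Mical1 and -0.53 for Bcl2, which followed that division. Only the comparison at 12 h crosses the division, so in none of these genes can a change with time be told apart from it. Cdkn1b was lower in cko cells at 12 h and higher at 2 h (0.78).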

How the results depend on the processing

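With a 2-fold minimum the calls numbered 2189 genes and 4148 probe sets at 12 h, 684 genes at 0 h, 508 at 2 h and 1917 for the difference of 12 h from the earlier times. The same minimum left 115 agreeing genes, 147 genes with opposite probe sets and 9 agreeing genes called the same way at all times. This last count was 73 without a filter on low values, against 114. Leaving out each of the 12 arrays gave 5360 to 6317 genes and 8761 to 10697 probe sets at 12 h, 426 to 631 agreeing genes, 834 to 1144 opposite genes, 2876 to 3942 genes at 0 h, 2366 to 3510 at 2 h, 4478 to 5166 for the difference between times and 84 to 102 agreeing genes of all times. Median scaling turned the split at 12 h to 3517 higher and 2544 lower genes, against 2612 and 3646, and the split of agreeing genes to 498 and 155. With the replicate block 6258 genes were called at 12 h and no named gene changed its call. The deviations of same-numbered arrays of the 2 genotypes had a correlation of 0.0053 at 12 h. Whether such arrays share more than a number is not stated in the labels. Averaging the probe sets reversed Akap9 (1.29), Bcl2l11 (-0.18), Ccnd2 (0.25), Cd86 (0.20), Cdk6 (0.16), Cdkn1a (1.25), Ddx3x (0.11), Dnaja1 (-0.15), Ets1 (0.037), Ifi35 (0.043), Ifnar2 (0.12), Nars (0.55), Phgdh (1.47), Prdx4 (-0.10), Shmt2 (0.022), Slc38a1 (0.13), Slc38a2 (0.11) and Wnk1 (1.27). Median scaling reversed Ccnd2 (0.085), Cdkn1a (0.15), Nars (0.003) and Xist (0.032), and quantile normalization Rps14 (0.028). Cdkn1a lay between -0.19 and 0.064 when an array of cko at 12 h was left out. The cause of these reversals was not tested.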
